A study of Mus musculus with 12 samples.

Results

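The comparison described here set WT thymic γδ T cells against WT thymic DN1-DN3 cells, a joint sort of the CD4-negative and CD8-negative precursors DN1, DN2 and DN3, in the 3′ single-cell transcriptomes of a mouse series. Its members were the cells of 4 demultiplexed libraries, 2 for each compartment, that held at least 500 UMIs (unique molecular identifiers, each standing for 1 captured transcript) and at most 20% mitochondrial counts. These limits kept 29468 of the 29761 barcodes in the 4 libraries, of 96911 cells kept in all 12 libraries of the series. γδ T cells gave 6817 and 7968 of them in replicates 1 and 2, and DN1-DN3 cells 7207 and 7476. The series as a whole compared WT and GFI1 KO mice in splenic γδ T cells, thymic γδ T cells and DN1-DN3 cells. WT and KO cells of each of its 6 pools carried different hashtag antibodies and shared a droplet run. The mice were adult, on the C57BL6/J background, without a treatment named in the sources used here. The KO groups used near the end of the account came from Gfi1 knock-out mice of the same age class, and the WT libraries carry no introduced allele in the labels. Per the study's design text both thymic populations came from the same mice, and per its methods B cells, myeloid cells and NK cells were depleted and CD8+ cells partly removed before sorting. The number of mice behind each library is not given in the sources used here, so the spread between replicates may be partly technical.

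T cell development in the thymus runs through the DN stages, in which Notch signals from the stroma hold progenitors to the T lineage and the RAG recombinase opens the T cell receptor (TCR) gene loci. A cell that first makes a productive TCRβ chain pairs it with pre-Tα and goes on towards the αβ lineage, whereas a cell that assembles productive γ and δ chains can signal through a complete γδ TCR. γδ T cells then mature through EGR and ID3, acquire an interferon-γ-type or interleukin-17-type programme and leave for the periphery.

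Each summed library held between 58933385 and 71663962 UMIs, with medians of 5975 to 6853 UMIs and 2538 to 2771 genes per cell, and levels are given as CPM, the UMI count of a gene scaled to a fixed total per library. Library pairs among the 4 shared 5 to 23 cell barcodes. Each compartment and replicate was its own droplet run and its own sort gate, so run, gate and compartment cannot be told apart. Of the 10 precursor markers 9 were lower in γδ T cells (90%, against 22.9% of all genes tested), and the summed level of the 10 was 2299.9 and 2245 CPM in DN1-DN3 libraries and 257 and 315 CPM in γδ T libraries. The exception was Kit, the stem cell factor receptor, with 29.4 and 22.3 CPM in DN1-DN3 and 28.1 and 27.5 CPM in γδ T libraries (log2 difference 0.13, SE 0.15, edgeR adjusted p = 0.505). Kit was called higher in the fit without cells of the marker lists (log2 0.82, adjusted p = 0.00376). That fit left out most cells, 73.05% and 80.2% of DN1-DN3 and 77.6% and 78.7% of γδ T cells, since T cells use some of the listed genes. Of 9 measured γδ T markers 6 were higher (66.7%, against 24.4% of all genes tested) and 3 did not pass the test, and their sums were 2299 and 2441 CPM in DN1-DN3 and 4789.6 and 4641 CPM in γδ T libraries. Lyz2, a myeloid lysozyme, was at 6.05 and 7.7 CPM in DN1-DN3 and 0.153 and 0.474 CPM in γδ T libraries, and Foxn1 of the thymic epithelium had at most 0.014 CPM. Igkc, an immunoglobulin light chain, was uneven between the DN1-DN3 libraries at 51.1 and 188 CPM. Cells with at least 2 UMIs of 13 defining markers of B, myeloid, erythroid and stromal cells made up 0.869% to 1.07% of DN1-DN3 cells and 0.0587% to 0.113% of γδ T cells. Without these cells 7070 genes differed between the compartments in place of 7046, and 6958 genes were in both counts. The summed levels of the whole marker lists, which include genes that T cells also use, ran in DN1-DN3 and γδ T libraries at 166 to 309.7 and 157 to 158 CPM for 8 B cell markers, 93.1 to 97.1 and 90.5 to 96.7 CPM for 10 myeloid markers, and 19.1 to 24.1 and 126 to 136 CPM for 8 NK and ILC markers, of which Rora gave most in γδ T cells. For 6 erythroid markers they ran at 12.1 and 3.43 to 5.78 CPM, for 8 stromal markers at 213 to 239 and 249 to 265 CPM, and for 6 genes of double positive thymocytes at 2816 to 3290 and 550.2 to 592 CPM. Dntt and Arpp21, which the DN stages also use, made up most of the last sum. The part of these cells in the results was not tested beyond the fit without them. Xist and the Y-linked Ddx3y were both counted in all 4 libraries, at 834 to 1488 CPM and 26 to 35.8 CPM, and neither passed the test between the compartments (adjusted p = 0.187 and 0.176). With the 4 WT libraries alone Xist was called lower (log2 −0.49, adjusted p = 0.0099) and Ddx3y higher (log2 0.32, adjusted p = 0.0102) in γδ T cells, and the part of the sex mix in the results was not tested.

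The comparison asked how the transcriptome of a committed γδ T cell differs from that of the precursor pool in the normal thymus. Of 14922 genes tested 7046 differed (47.2%), with 3635 higher in γδ T cells (24.4%) and 3411 lower (22.9%). The difference exceeded 2-fold for 1765 of the higher and 1144 of the lower genes, and 8-fold for 405 and 200. Tests were made with edgeR's quasi-likelihood F test on summed counts with Benjamini-Hochberg adjustment, and a gene was called at an adjusted p below 0.05. The median log2 difference of all genes tested was −0.00215. The libraries of the compartments did not overlap for 11696 of the 14922 genes, so a lack of overlap was the usual state of a gene. A summed level cannot tell fewer cells with a transcript from fewer transcripts per cell. Leaving out γδ T replicate 1 lowered the count to 4660 genes, and 4637 of these were among the 7046.

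Among called genes with at least 20 CPM in the higher compartment and libraries that did not overlap, the steepest gains in γδ T cells began with Hmga2, an architectural chromatin protein of fetal and stem-like cells. Hmga2 was at 0.291 and 0.385 CPM in DN1-DN3 and 74.5 and 61.3 CPM in γδ T libraries (log2 difference 7.66, SE 0.35, adjusted p = 6.91e-07). B630019A10Rik, a transcript without an assigned function, followed with 3.62 and 3.47 CPM in DN1-DN3 and 477 and 405 CPM in γδ T cells (log2 6.98, adjusted p = 1.11e-06). In both genes the precursor libraries lay under 1% of the γδ T level, at 0.498% and 0.804%. P2rx7, the ATP-gated ion channel, rose from 1.26 and 1.59 to 84.1 and 89.8 CPM (log2 5.95, SE 0.17, adjusted p = 1.25e-07). St6gal1, a sialyltransferase, rose from 12.4 and 9.86 to 549.8 and 459 CPM (log2 5.53), and Slc15a1, an oligopeptide transporter, from 0.938 and 0.69 to 54.4 and 49.8 CPM (log2 6.02). The other genes among the 12 were Ralyl, Rbms3, S1pr1, Ccr7, Prr5l, Myo6 and Tox2, with log2 differences of 5.23 to 6.80. The steepest losses began with Khdc1a, at 65.8 and 64 CPM in DN1-DN3 and 1.02 and 1.41 CPM in γδ T libraries (log2 −5.71, SE 0.28, adjusted p = 1.93e-06), and Bst1, an ectoenzyme of the CD38 family, at 38.4 and 39.7 CPM in DN1-DN3 and 0.492 and 1.09 CPM in γδ T cells (log2 −5.58). Adamts17, a secreted metalloprotease, fell from 157 and 132 to 4.5 and 6.68 CPM (log2 −4.66, adjusted p = 5.28e-07). Rag1 and Ptcra stood in the same group of 12, with 2700054A10Rik, Arhgef10l, 6030498E09Rik, Tnr, Rab44, Mpzl2 and Slc5a9, all between −5.71 and −4.66 on the log2 scale. γδ T libraries lay below both DN1-DN3 libraries for each of the 12, which the rule for choosing them required.

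Of the recombination and pre-TCR genes 8 of 11 were lower in γδ T cells and 3 did not pass the test. Rag1, the catalytic subunit of the recombinase, was at 203 and 216 CPM in DN1-DN3 and 4.16 and 7.56 CPM in γδ T libraries (log2 difference −5.13, SE 0.33, adjusted p = 1.51e-05). Its partner Rag2 fell from 44.4 and 49.4 to 1.31 and 2.55 CPM (log2 −4.57, adjusted p = 6.35e-06). Ptcra, which encodes pre-Tα, fell from 102 and 126 to 2.22 and 5.07 CPM (log2 −4.94, SE 0.41, adjusted p = 1.46e-05). For all 3 genes the higher γδ T library was replicate 2, and the compartments stayed far apart. Dntt, the terminal transferase that adds untemplated bases at junctions, kept a larger remainder, with 787 and 850.5 CPM in DN1-DN3 and 122 and 142 CPM in γδ T libraries (log2 −2.61, adjusted p = 2.58e-05). Of the end-joining factors that every lymphocyte uses, Xrcc6 (Ku70) fell by 1.99 on the log2 scale and Xrcc5 (Ku80) by 0.35, each below both precursor libraries. Lig4 and Dclre1c did not pass the test (adjusted p = 0.0907 and 0.123). Among the 11 genes of the list 8 fell (72.7%, against 22.9% of all genes) and none rose, with 6 to 10 falling over the alternatives and a median log2 difference of −0.47.

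The upstream sequences of 2 of these falling genes are shown because both hold letters of the E-protein and RBPJ type within a short stretch. They were read from RefSeq promoters on build GRCm38.p6, which is older than the build of the deposited counts, and cover the 150 bases before the annotated start, in 5′ to 3′ direction of the gene. Ptcra lies on the minus strand of chromosome 17 (chr17:46763713-46763862) and Rag1 on the minus strand of chromosome 2 (chr2:101649533-101649682). Capitals mark matches on either strand to CAGCTG or CAGGTG (E boxes), TGGGAA (RBPJ type), TGTGGT (RUNX type), TGACGTCA (CRE) or GCGNGGGCG (EGR type).
Ptcra: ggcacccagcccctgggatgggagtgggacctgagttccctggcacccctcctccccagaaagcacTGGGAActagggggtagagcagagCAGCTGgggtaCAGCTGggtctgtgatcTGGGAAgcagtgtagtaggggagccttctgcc
Rag1: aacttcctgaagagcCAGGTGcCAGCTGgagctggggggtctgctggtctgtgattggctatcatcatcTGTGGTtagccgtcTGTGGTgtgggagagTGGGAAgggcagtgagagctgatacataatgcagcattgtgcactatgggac
In the stretch of Ptcra 4 matches were found, CAGCTG in 2 places and TGGGAA in 2. In that of Rag1 there were 5, TGTGGT in 2 places and 1 match each to CAGGTG and to CAGCTG and to TGGGAA. Such letters are common. Over the 250 bases before the start, 13% of all 32851 promoters held CAGCTG, 17.2% CAGGTG, 21.6% TGGGAA and 14% TGTGGT. In the recombination list 5 of 11 promoters held CAGCTG (45.5%), 3 held TGGGAA (27.3%), and 1 each held CAGGTG and TGTGGT (9.09%). A match gives letters and not a bound site.

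Notch1, Notch3 and several Notch targets were lower in γδ T cells. Notch3, a receptor that is itself a Notch target in thymocytes, went from 206 and 186 CPM in DN1-DN3 to 10.6 and 10.2 CPM in γδ T libraries (log2 difference −4.22, SE 0.21, adjusted p = 9.39e-07). Notch1 itself went from 386 and 346 to 52 and 64.4 CPM (log2 −2.63, adjusted p = 9.04e-07). Among the targets, Hes1, a transcriptional repressor, went from 123 and 144 to 17.6 and 21 CPM (log2 −2.78), Nrarp, a feedback inhibitor, had a log2 difference of −1.84, and Dtx1, a ubiquitin ligase, went from 28.6 and 28.8 to 8.65 and 12.2 CPM (log2 −1.44). The γδ T libraries lay below both precursor libraries for each of these genes. A lack of overlap, in either direction, was found for 11696 of all 14922 genes. Il2ra, which encodes the CD25 chain by which DN2 and DN3 cells are told from DN1 cells, went from 543 and 424 to 17.5 and 28.4 CPM (log2 −4.37, adjusted p = 2.7e-06). CD25 belongs to the study's flow cytometry definition of DN2 and DN3, so a part of this difference set by the sort cannot be told apart. In the other direction Hey1, a related repressor, was called higher (adjusted p = 0.00436) at only 0.373 and 0.614 CPM in γδ T libraries, against 2 and 3 UMIs in the DN1-DN3 libraries, too few for a fold. Notch2 did not pass the test (30.4 and 24.8 CPM in DN1-DN3 and 29 and 29.5 CPM in γδ T cells, adjusted p = 0.558). In all 9 of 17 tested list members, of 18 listed, fell (52.9%, against 22.9% of all genes) and 4 rose (23.5%, about the 24.4% of all genes), and the median log2 difference was −0.74. TGGGAA stood in 6 of the 16 promoters of the list (37.5%), against 21.6% of all promoters.

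Progenitor factors that thymus-seeding cells share with bone marrow progenitors were next. Erg, an ETS factor of stem cells and early T progenitors, was at 54.2 and 38.3 CPM in DN1-DN3 and 3.19 and 4.2 CPM in γδ T libraries (log2 difference −3.61, SE 0.19, adjusted p = 8.59e-07). Cd34, a progenitor surface protein, fell by 3.51 on the log2 scale at low levels (3.56 and 1.44 CPM in DN1-DN3 and 0.136 and 0.279 CPM in γδ T cells), and Mef2c by 1.52. Of 19 tested members, of 20 listed, 10 fell (52.6%, against 22.9% of all genes) and 1, Sox4, rose, with a median log2 difference of −1.52. This median was −0.92 without DN1-DN3 replicate 1, −0.79 in the 4 WT libraries alone, −0.78 in the 8 thymic libraries and −0.57 without cells of defining other-lineage markers. The count of falling members was 6 without γδ T replicate 1, and the rise of Sox4 was lost without any 1 of the 4 libraries.

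Genes of the γδ TCR itself were mostly higher in γδ T cells, with γ constant genes that did not pass the test. Trdc, the δ constant region, was at 192 and 199 CPM in DN1-DN3 and 1286 and 1233 CPM in γδ T libraries (log2 difference 2.71, SE 0.16, adjusted p = 1.86e-06). The γ constant genes were not alike. Trgc1 was at 381 and 369 CPM in DN1-DN3 and 408 and 396 CPM in γδ T cells (adjusted p = 0.326) and Trgc2 at 508 and 498 CPM in DN1-DN3 and 537 and 510.3 CPM in γδ T cells (adjusted p = 0.687), neither past the test, whereas Trgc4 went from 194 and 195 to 448 and 428 CPM (log2 1.19, adjusted p = 0.000467). Trgc1 and Trgc2 are close in sequence, and counting could split reads between them. Among variable segments, Trgv1 rose from 14.1 and 11.8 to 87.9 and 80.8 CPM (log2 2.73), Trdv5 from 1.34 and 1.25 to 18.7 and 16.8 CPM (log2 3.79) and Trdv4 from 0.0809 and 0.128 to 6.79 and 6.67 CPM (log2 5.99, adjusted p = 2.09e-07). Segments lie far from the 3′ end that this chemistry reads, so their levels are not those of whole receptors. Of 28 listed γ and δ genes 17 were in the files and 16 were tested, of which 13 rose (81.2%, against 24.4% of all genes) and none fell, with a median log2 difference of 2.41. The study's flow cytometry definition of DN cells leaves out cells with a surface γδ TCR. A part of these differences set by the sort cannot be told apart. The β constant genes, whose sequences are nearly identical, were abundant in both compartments, and Trbc1 went from 724 and 771 to 1334 and 1288 CPM (log2 0.83, adjusted p = 0.000806). Of 6 αβ constant and coreceptor genes 4 rose (66.7%, against 24.4% of all genes) and none fell. Trac, the α constant region, went from 18.8 and 20.7 to 62.9 and 54.3 CPM (log2 1.58, adjusted p = 0.00247), a call lost without cells of the marker lists, and at 2000 UMIs per cell it was detected in 11.5% and 10.6% of γδ T and 3.5% and 3.48% of DN1-DN3 cells. Cd4 was at 0.518 and 0.722 CPM in DN1-DN3 and 1.82 and 2.72 CPM in γδ T libraries, and Cd8a at 1 and 0.947 CPM and 0.577 and 0.754 CPM. Trac thus moved with the TCR-induced, co-signalling and exit genes, and the part of cells with αβ transcripts in those results was not tested. The CD3 chains that carry every TCR to the surface moved in different directions. Cd3e was at 469.9 and 502 CPM in DN1-DN3 and 495 and 497 CPM in γδ T cells (adjusted p = 0.749), Cd3g fell from 1958 and 2084 to 1179 and 1257 CPM (log2 −0.71, adjusted p = 0.00206), and Cd247, the ζ chain, rose from 419 and 365 to 1063 and 921 CPM (log2 1.36, adjusted p = 8.73e-06).

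**Figure D1:**
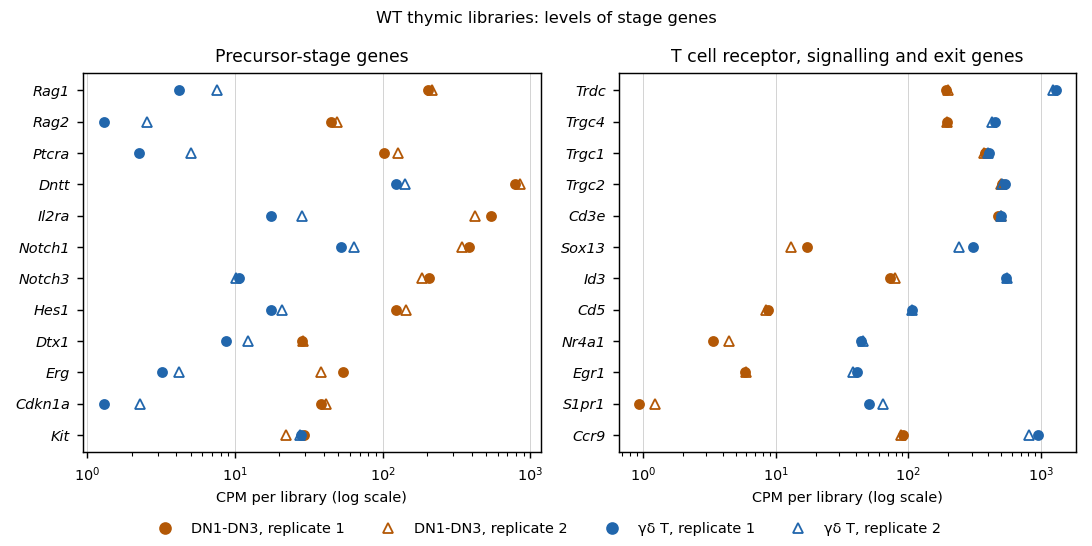
CPM of 24 genes in the 4 WT thymic libraries, 1 point per library on a log axis, with precursor-stage genes on the left and receptor, signalling and exit genes on the right. γδ T libraries lie below both DN1-DN3 libraries for the precursor-stage genes except Kit, and above them for the genes on the right except Cd3e, while Trgc1, Trgc2 and Cd3e did not pass the test.

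Components of proximal TCR signalling shifted between kinases. Syk, the kinase that serves the pre-TCR and B cell receptors, was at 37.5 and 31.2 CPM in DN1-DN3 and 8.37 and 8.19 CPM in γδ T libraries (log2 difference −2.03, SE 0.20, adjusted p = 2.95e-05). Its relative Zap70 rose from 18 and 16.9 to 80.4 and 72.6 CPM (log2 2.15, adjusted p = 3.9e-05). The compartments did not overlap for either kinase and their order was opposite. Txk, a TEC family kinase, rose from 11 and 10.2 to 116 and 110.2 CPM (log2 3.43), and Fyn, a SRC family kinase, from 83.4 and 70 to 335 and 299 CPM (log2 2.07). Downstream, Rasgrp1, which activates RAS, rose from 87.7 and 72.9 to 602 and 513 CPM (log2 2.82, adjusted p = 3.54e-06). Prkcq, which leads to NF-κB, rose by 2.32 on the log2 scale. Of 25 members 17 rose (68%, against 24.4% of all genes), 3 fell (12%, against 22.9%) and 5 did not pass the test (median 0.83), and 1 fell without γδ T replicate 1.

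Genes that T cells induce on TCR engagement were higher in γδ T cells with few exceptions. Nr4a1 (Nur77), an orphan nuclear receptor, was at 3.38 and 4.45 CPM in DN1-DN3 and 43.8 and 45.3 CPM in γδ T libraries (log2 difference 3.52, SE 0.17, adjusted p = 5.5e-07). Cd5, a receptor that dampens TCR signals and whose level follows their strength, was at 8.77 and 8.44 CPM in DN1-DN3 and 107 and 107 CPM in γδ T cells (log2 3.65, adjusted p = 1.09e-05). Both γδ T libraries were above both precursor libraries for these genes. The zinc finger factor Egr1 rose from 5.91 and 6.02 to 41.2 and 38 CPM (log2 2.75), and Egr2, at lower levels, from 0.437 and 0.674 to 6.14 and 5.25 CPM (log2 3.37). Nr4a3 rose by 4.64, Tnfrsf9 (4-1BB) by 3.89 and Cd69, an early activation antigen, by 2.91 on the log2 scale. Myc, the growth factor-responsive transcription factor, was the exception and fell from 143 and 137 to 26.8 and 35.4 CPM (log2 −2.15, adjusted p = 0.000178). In all 17 of 20 members rose and 1 fell (90.0% called, against 47.2% of all genes), with a median log2 difference of 2.58. The stretch before the start of Nr4a1, on the plus strand of chromosome 15 (chr15:101266696-101266845, GRCm38.p6), is shown as the example of a rising gene with an EGR-type match, in capitals as above.
Nr4a1: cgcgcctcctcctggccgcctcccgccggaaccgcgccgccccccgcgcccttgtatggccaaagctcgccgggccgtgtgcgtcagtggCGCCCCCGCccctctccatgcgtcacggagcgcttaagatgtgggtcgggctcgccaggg
GCGNGGGCG stood in 4.7% of all promoters and in 5 of the 22 promoters of the TCR-induced genes (22.7%), where a gene can have several starts. Genes of the AP-1 and heat shock list, which also respond to cell handling, moved in both directions. Fos rose from 0.372 and 0.305 to 6.09 and 5.39 CPM (log2 4.10), while Jun fell from 21.6 and 19.8 to 7.5 and 5.87 CPM (log2 −1.61) and Hsp90aa1, a heat shock protein, by 1.04 on the log2 scale. Of 15 members 7 rose (46.7%, against 24.4% of all genes) and 3 fell (20%, near the 22.9% of all genes). Without cells of the marker lists 5 of 14 rose and 2 fell. The median log2 difference was 0.334, and 0.315 without DN1-DN3 replicate 1.

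Transcription factors included E proteins and their inhibitors. Id3, which blocks E proteins and is induced by γδ TCR signals, was at 73.2 and 79.6 CPM in DN1-DN3 and 542 and 556 CPM in γδ T libraries (log2 difference 2.86, SE 0.25, adjusted p = 2e-05). Of the E protein genes Tcf4 was called lower, at 208 and 174 CPM in DN1-DN3 and 139.7 and 131 CPM in γδ T cells (log2 −0.47, adjusted p = 0.0233), and lost the call without DN1-DN3 replicate 1 or either γδ T library (adjusted p up to 0.133). The others did not pass the test. Tcf3 was at 111 and 106 CPM in DN1-DN3 and 88.6 and 92.4 CPM in γδ T cells (adjusted p = 0.0996), and Tcf12 at 1233 and 1024 CPM and 999.6 and 937 CPM (adjusted p = 0.174). Id2 had 47 and 46.3 CPM in DN1-DN3 and 98.2 and 102 CPM in γδ T cells, and its call (adjusted p = 0.0157) was lost without any 1 of the 4 libraries, with adjusted p up to 0.0777. Among T-lineage factors, Tox2 went from 4.24 and 4.33 to 162 and 156 CPM (log2 5.23, adjusted p = 5.28e-07) and Tox from 581 and 442 to 2433 and 2041 CPM (log2 2.15). RUNX family members moved apart, with Runx1 falling from 1652 and 1362 to 586 and 603 CPM (log2 −1.32) and Runx3 rising from 41 and 32.3 to 174 and 167 CPM (log2 2.24). The Ikaros family genes Ikzf1, Ikzf2 and Ikzf3 rose by 1.07, 2.25 and 2.74. Gata3, required at several steps of the T lineage, rose from 118 and 109 to 309 and 273 CPM (log2 1.38). Bcl11b, which seals T-lineage commitment, fell by 0.47 from 1428 and 1270.2 CPM, and Tcf7 (TCF-1) was at 721 and 721 CPM in DN1-DN3 and 685 and 684 CPM in γδ T cells (adjusted p = 0.759). Gfi1, a zinc finger repressor, fell from 44.7 and 40.6 to 16.5 and 17.6 CPM (log2 −1.30, SE 0.20, adjusted p = 0.000493), and both γδ T libraries were below both precursor libraries. Of 20 commitment factors 11 rose (55%, against 24.4% of all genes), 6 fell (30%, against 22.9%) and 3 did not pass the test.

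The 20 members of the interleukin-17 programme that were measured, of 22 listed, all passed the filter on low counts and were higher in γδ T cells (100%, against 24.4% of all genes), with a median log2 difference of 2.58, and 16 to 20 were called over the alternatives. Etv5, an ETS factor of immature γδ T cells, was at 7.3 and 5.39 CPM in DN1-DN3 and 236 and 179.9 CPM in γδ T libraries (log2 5.06, SE 0.22, adjusted p = 5.28e-07). Maf, which sets up the programme, was at 16.5 and 15.2 CPM in DN1-DN3 and 339 and 261 CPM in γδ T libraries (log2 4.27), and Sox13, an HMG factor of the γδ lineage, at 17.3 and 13 CPM and 304 and 239 CPM (log2 4.19). Replicate 1 of the γδ T libraries was the higher for all 3 factors. Blk, a SRC family kinase, was at 30.9 and 30.8 CPM in DN1-DN3 and 259 and 217 CPM in γδ T cells (log2 2.97). The scavenger receptors Scart1 and Scart2 rose by 2.39 and 2.64. The interleukin-23 receptor Il23r was called (log2 1.57, adjusted p = 0.0338) but lost the call under 8 of the 14 alternatives, with adjusted p up to 0.147 (0.0553 with the replicate block). Of 19 type 1 and cytotoxic genes 11 were higher (57.9%, against 24.4% of all genes) and 2 lower (10.5%, against 22.9%). Eomes, a T-box factor, was near 0 in DN1-DN3 at 0.243 and 0.225 CPM and at 12.4 and 9.11 CPM in γδ T libraries (log2 5.53, adjusted p = 1.39e-05). The related Tbx21 (T-bet) had 2.65 and 2.22 CPM in DN1-DN3 and 2.43 and 2.02 CPM in γδ T cells and did not pass the test (adjusted p = 0.881). Il2rb, the β chain of the interleukin-2 and interleukin-15 receptors, rose from 9.74 and 8.84 to 100.3 and 96.9 CPM (log2 3.43) and Cd160 from 4.6 and 4.61 to 49.6 and 47.1 CPM (log2 3.41). Gzmb, a granzyme, fell from 5.23 and 5.3 to 1.05 and 1.31 CPM (log2 −2.12).

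Genes for leaving the thymus and for homing were higher in γδ T cells in most cases. S1pr1, the sphingosine 1-phosphate receptor that draws cells out of the thymus, was at 0.938 and 1.24 CPM in DN1-DN3 and 50.1 and 64.4 CPM in γδ T libraries (log2 difference 5.73, SE 0.45, adjusted p = 1.07e-05). Klf2, which activates S1pr1, was at 17.5 and 21.4 CPM in DN1-DN3 and 255 and 319.8 CPM in γδ T cells (log2 3.90, adjusted p = 8.59e-07). For both genes the γδ T replicate 2 was the higher. Ccr7, a lymph node homing receptor, went from 0.663 and 0.706 to 30.5 and 28.9 CPM (log2 5.45), Ccr9, which guides cells to the thymus and gut, from 90.6 and 87.8 to 941 and 806 CPM (log2 3.31), and Itgb7, an integrin for gut homing, from 8.88 and 8.39 to 77.5 and 88.5 CPM (log2 3.28). Of 21 members 12 rose (57.1%, against 24.4% of all genes) and 4 fell (19%, near the 22.9% of all genes), with a median of 1.52, and the falling count was 2 without DN1-DN3 replicate 1 and 1 without any other single library. In WT splenic γδ T cells, given as a description without a test since Xist was near 0 in those libraries, S1pr1 was at 269.9 and 295 CPM, Klf2 at 734 and 857 CPM and Ccr9 at 171 and 159.9 CPM. Both splenic libraries were above the thymic γδ T libraries for S1pr1 and Klf2 and below them for Ccr9. Co-signalling receptors rose in 16 of 19 cases (84.2%, against 24.4% of all genes). Pdcd1 (PD-1) went from 9.64 and 8.75 to 164 and 141 CPM (log2 4.07), Cd2 from 6.59 and 6.1 to 103 and 106 CPM (log2 4.06) and Btla from 2.65 and 2.54 to 37.6 and 38.2 CPM (log2 3.89), while Ctla4 fell from 33.4 and 34.8 to 3.29 and 3.88 CPM (log2 −3.23, adjusted p = 1.54e-06). Cytokine receptor and JAK-STAT genes gave 6 higher and 6 lower of 16, beside 24.4% and 22.9% of all genes, and 3 lower without DN1-DN3 replicate 2 or γδ T replicate 1. Il2rg, the common γ chain, rose by 1.23, and Socs2, a feedback inhibitor, fell by 2.37 on the log2 scale.

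**Figure D2:**
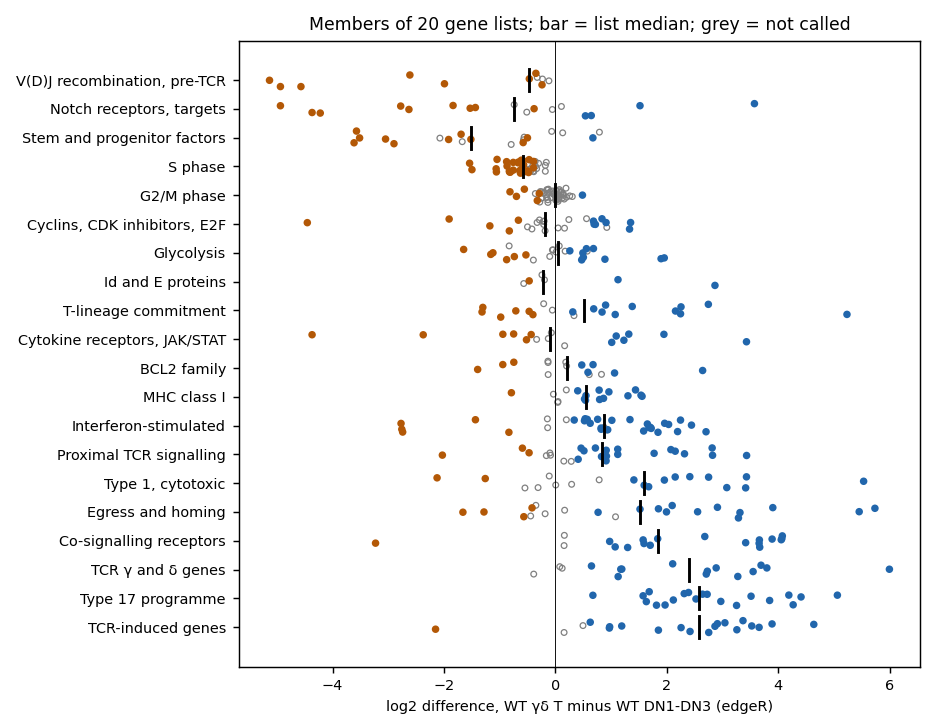
Log2 difference (WT γδ T minus WT DN1-DN3, edgeR) of every tested member of 20 gene lists, 1 dot per gene, coloured where called and grey where not, with the list median as a bar. Medians run from −1.52 for stem and progenitor factors (−0.57 without cells of defining other-lineage markers, −0.92 without DN1-DN3 replicate 1) to 2.58 for TCR-induced and type 17 genes, beside −0.00215 for all genes tested.

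The number of replication genes that fell in γδ T cells depended on the libraries and cells used, and most mitotic genes did not pass the test. Of 43 S phase genes 29 fell in γδ T cells and none rose (67.4%, against 22.9% of all genes falling), with a median log2 difference of −0.59. Uhrf1, which maintains DNA methylation at replication, went from 197 and 207 to 62.7 and 78.4 CPM (log2 −1.5, adjusted p = 0.000492) and Cdca7, a chromatin factor, from 231 and 240.2 to 72.2 and 87.6 CPM (log2 −1.54). The count rested on single libraries, with 14 falling without γδ T replicate 1 and 19 without DN1-DN3 replicate 2. It was 17 without cells of the marker lists, with a median of −0.37, and 40 with the 4 WT libraries alone. Among 52 G2/M genes 5 fell and 1 rose (11.5%, under the 47.2% of all genes), and the median was −0.01. Cdk1, the mitotic kinase, was at 93.3 and 106 CPM in DN1-DN3 and 88.8 and 109 CPM in γδ T cells (adjusted p = 0.977). The small G2/M counts were at most 3 called genes when any of the 4 libraries was left out. The inhibitor Cdkn1a (p21), also a p53 target, fell from 38.2 and 41.3 to 1.29 and 2.26 CPM (log2 −4.45, SE 0.30, adjusted p = 4.13e-06). Cdk6, the kinase that pairs with D cyclins, fell from 1463 and 1209 to 348 and 353 CPM (log2 −1.91), while Cdkn2d (p19) rose from 36.3 and 43 to 94.4 and 105 CPM (log2 1.35).

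Of 33 interferon-stimulated genes 23 were higher in γδ T cells (69.7%, against 24.4% of all genes) and 5 were lower (15.2%, against 22.9%, and 3 with the replicate block), with a median log2 difference of 0.87. The rising count depended on the cells and libraries used. It was 16 without cells of the marker lists, with a median of 0.67. It was also lower without any 1 of the 4 libraries. The median was then 0.87 without DN1-DN3 replicate 1, 0.81 without DN1-DN3 replicate 2, 0.89 without γδ T replicate 1 and 0.83 without γδ T replicate 2. Ifi206, of the AIM2-like family, went from 9 and 8.73 to 55.1 and 58.7 CPM (log2 2.70), and Usp18, which removes ISG15, from 10.1 and 12.1 to 50 and 50.5 CPM (log2 2.19). Among the 5 that fell, Ifitm3, a membrane protein against viral entry, went from 10.9 and 11.3 to 1.41 and 1.81 CPM (log2 −2.76, adjusted p = 1.64e-05). Of 17 MHC class I genes 12 were higher (70.6%, against 24.4% of all genes) and 1 lower, and 7 were higher without γδ T replicate 2. H2-T23 rose from 38.3 and 38 to 113 and 105 CPM (log2 1.54) and Nlrc5, the class I transactivator, from 19.8 and 16.9 to 51.3 and 54.8 CPM (log2 1.55), and Tap2, a peptide transporter subunit, fell by 0.79. Close paralogs of the class I and Ifitm families can share reads. Of 24 glycolysis entries (Aldoa has 2 identifiers) 9 rose (37.5%, against 24.4% of all genes) and 6 fell (25%, near the 22.9% of all genes). Slc16a1, a lactate and pyruvate transporter, fell from 77.2 and 71.7 to 21.2 and 25.6 CPM (log2 −1.65) and Pdk1, which limits pyruvate entry, from 57.3 and 54.3 to 24.4 and 24.8 CPM (log2 −1.16). In the BCL2 family 5 of 15 rose and 3 fell (53.3% called, near the 47.2% of all genes). The rising count was 2 without γδ T replicate 2 and 3 without DN1-DN3 replicate 2 or γδ T replicate 1. Mcl1, a survival protein, rose by 0.58 and Bid, a death agonist, fell by 1.4.

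The share of cells with a UMI showed how broadly these levels were carried. Cells were brought to 2000 UMIs each, as the expected share on random thinning, and shallower cells were left out (6340 and 7500 γδ T and 6624 and 6901 DN1-DN3 cells of the 2 replicates remained). Trdc was detected in 86.8% and 86.7% of γδ T cells and 25.7% and 27.1% of DN1-DN3 cells, a difference of 60.4 points. In cells of the DN1-DN3 sort with at least 2 UMIs of defining B-lineage genes, WT and KO together, Trdc was detected in 4.14% and 5.26% of 28 and 67 cells, thinned to the same depth. The precursor share of Trdc was thus above that of these B-lineage cells in both runs. Rag1 was detected in 30.7% and 34% of DN1-DN3 cells and 0.34% and 0.678% of γδ T cells, with no UMI in WT splenic γδ T cells. Ptcra was found in 20.8% and 25.1% of DN1-DN3 cells and 0.25% and 0.522% of γδ T cells, beside 0.0728% and 0.0693% of splenic cells. Rag1 was also detected in 8.73% and 6.42% and Ptcra in 4.86% and 3.83% of the B-lineage cells of the DN1-DN3 runs, where these genes are abundant. The γδ T runs held 1 and 3 such cells, too few for a background share, and the part of free RNA in the small γδ T shares was not tested. Id3 was in 49.8% and 52% of γδ T and 8.71% and 9.57% of DN1-DN3 cells, and S1pr1 in 10.5% and 13.8% of γδ T and 0.294% and 0.305% of DN1-DN3 cells. The 28 and 67 B-lineage cells of the DN1-DN3 runs held Id3 in 15.1% and 7.18% and S1pr1 in 4.98% and 1.47%. Whether these cells transcribe the genes themselves was not tested. Free RNA and expression in the DN1-DN3 shares of Id3 and S1pr1 thus cannot be told apart. Trgc2 was in 57.7% and 57.8% of γδ T and 56% and 56.8% of DN1-DN3 cells, and Kit in 5.21% and 5.04% of γδ T and 5.96% and 4.98% of DN1-DN3 cells. Mki67, a proliferation antigen, was in 14.7% and 17.1% of γδ T and 21.7% and 18.5% of DN1-DN3 cells. The B-lineage cells of the DN1-DN3 runs held Trgc2 in 10.4% and 6.72%, Kit in 0.899% and 0.167% and Mki67 in 8.2% and 12.1%. The libraries of the compartments did not overlap for these genes, apart from Kit. An exact two-sided permutation test of 2 against 2 libraries cannot go below p = 0.33, the value of each gene named here except Kit (exact p = 1).

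**Figure D3:**
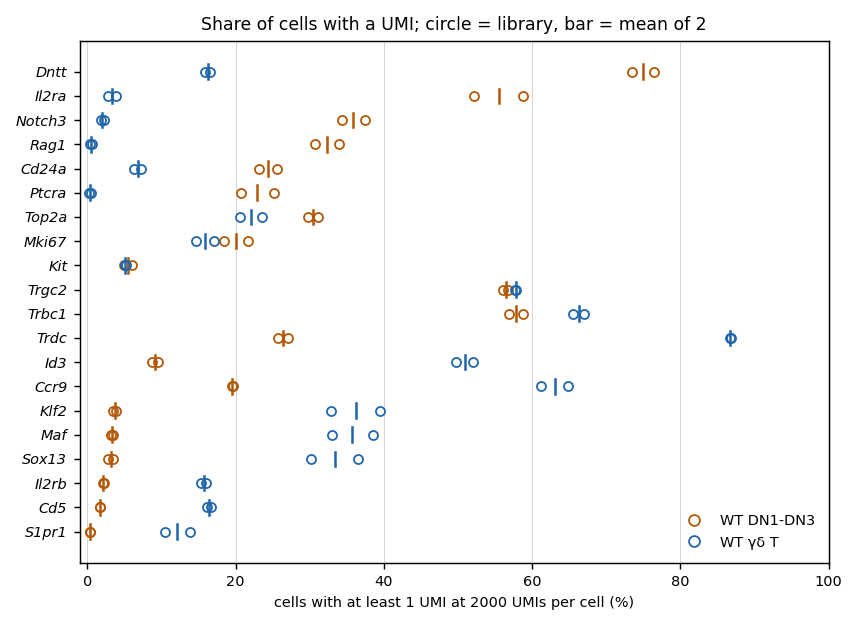
Percentage of cells with at least 1 UMI of 20 genes at 2000 UMIs per cell, with a circle for each WT thymic library and a bar at the mean of 2. Dntt has the highest mean in DN1-DN3 cells (75.0%) and Trdc in γδ T cells (86.7%) among the genes drawn, and the compartments overlap for Kit.

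The level counted in the lower compartment is given here as a percentage of that in the higher, and the part of free RNA in it was not tested. Relative to the mean CPM in γδ T cells, DN1-DN3 cells held 2.7% for Tox2, 2.31% for Ccr7 and 1.56% for Trdv4. They held more of Sox13 (5.58%), Cd5 (8.05%), Trdc (15.5%) and Runx3 (21.5%). Relative to DN1-DN3 cells, γδ T cells held 1.87% for Khdc1a, 2.8% for Rag1, 3.2% for Ptcra and 5.28% for Notch3, and 16.2% for Dntt, 14.4% for Hes1 and 15.9% for Notch1. Small remainders depended on the fit. Over the alternatives the log2 difference ran from −6.88 to −5.50 for Khdc1a, −7.15 to −4.77 for Rag1 and −7.26 to −4.48 for Ptcra. In γδ T libraries 62 and 178 cells held a Ptcra UMI. Of these cells 80.6% and 82.0% also held a Mki67 UMI, against 22.2% and 24.8% of the other γδ T cells. The Ptcra-positive cells were deeper, with medians of 20635 and 24683 UMIs against 6837 and 6780, and the part of depth or of droplets with more than 1 cell in this was not tested.

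Whether the normal difference between the compartments was also that of the libraries labelled KO was asked with an interaction term of the 12-library fit. Gfi1 itself was at 70.6 and 56.5 CPM in DN1-DN3 and 28.9 and 19.2 CPM in γδ T libraries labelled KO, not below the WT levels, so this transcript does not check the label. The difference between compartments differed between the labels for 3261 of 14922 genes (21.9%), 1944 with a more positive and 1317 with a more negative value in WT. With the 8 thymic libraries alone this split was 1869 to 877. Without DN1-DN3 replicate 1 or 2 or γδ T replicate 1 or 2 of the WT libraries, the count was 2151, 2031, 1902 and 1923. Of the 7046 genes called in WT 1952 were among the 3261, and 324 of these were called in the opposite direction with the label KO. Precursor genes were divided. For Rag1 the interaction was 1.52 (adjusted p = 0.0386), for Notch3 1.45 (adjusted p = 0.00628) and for Il2ra −3.01 (adjusted p = 0.000446), so that the fall was smaller in WT for the first and second and larger for Il2ra. For Rag2 it was 1.06 (adjusted p = 0.101), for Ptcra 1.65 (adjusted p = 0.0701), for Notch1 −0.25 (adjusted p = 0.364) and for Gfi1 −0.04 (adjusted p = 0.934), none past the test. Rag1 was at 4.16 and 7.56 CPM in WT γδ T libraries and 2.34 and 2.56 CPM in those labelled KO. The part of free RNA or of droplets with more than 1 cell in such small levels was not tested. TCR-induced genes had larger differences in WT, 15 of 20 with a called interaction, among them Id3 at 2.19 (adjusted p = 0.00207) and Nr4a1 at 2.40 (adjusted p = 0.000155). S1pr1 stood at 23.6 and 9.24 CPM in DN1-DN3 and 39.7 and 22.7 CPM in γδ T libraries labelled KO, and its interaction was 4.65 (SE 0.55, adjusted p = 0.000606). Dlgap1, a synaptic scaffold gene, was at 1.18 and 1.25 CPM in DN1-DN3 and 0.696 and 0.698 CPM in γδ T cells of WT, and at 1.41 and 1.08 CPM in DN1-DN3 and 62.6 and 46.3 CPM in γδ T cells labelled KO (interaction −6.38, SE 0.39, adjusted p = 2.6e-05). Among the 52 G2/M genes 46 had a called interaction, and Cdk1, which did not pass the test within WT, had 1.43 (adjusted p = 0.0144). All 46 were more positive in WT, and the 15 TCR-induced genes likewise, beside 1944 of all 14922 genes. The study reported different γδ T subsets in WT and KO thymus, and their part in these interactions was not tested.

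**Figure D4:**
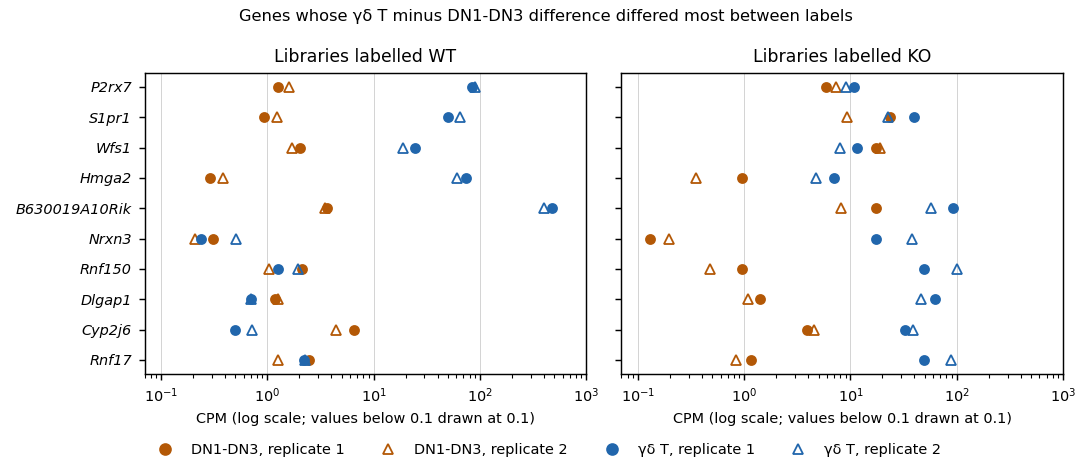
CPM of the 10 genes with the most extreme called interaction among those with at least 20 CPM in a group, on a log axis, in the 4 WT libraries on the left and the 4 libraries labelled KO on the right, 1 point per library. P2rx7, S1pr1, Wfs1, Hmga2 and B630019A10Rik have a more positive γδ T minus DN1-DN3 difference in WT. Each of them also has a higher DN1-DN3 mean with the label KO, S1pr1 at 16.4 CPM against 1.09 CPM in WT and Wfs1 at 18.3 CPM against 1.88 CPM. Nrxn3, Rnf150, Dlgap1, Cyp2j6 and Rnf17 are higher in γδ T cells with the label KO.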

How the data were processed

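Sorted thymic and splenic cells of WT and GFI1 KO mice were profiled with the 10x Genomics Single Cell 3′ kit. The deposited files give a whole-number UMI count for each gene in each cell, not normalized, which the authors made with Cell Ranger 8.0.1 on build GRCm39 per the labels and split by hashtag antibody with hashsolo per the study's methods. Genotype was taken from the hashtag of each library. The annotation version is not given in the sources used here.

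Cells with at least 500 UMIs and at most 20% mitochondrial counts were kept, no doublet caller was run here, and counts were summed per library. Ribosomal protein, Gm-numbered and mt- genes (9537) were left out, and filterByExpr kept 14922 of 24159 genes. edgeR 4.0.16 with TMM scaling and the robust quasi-likelihood F test was fitted to 12 libraries in 6 groups, with the WT contrast and its difference from the KO contrast. Calls were made at a Benjamini-Hochberg adjusted p below 0.05. SE stands for the absolute log2 difference divided by the square root of the F statistic, an approximation and not a fitted standard error. p-values rest on the spread between the 2 libraries of a group, pooled over all 6 groups and with information shared across genes. Summed depths of the 4 libraries were 58933385 to 71663962 UMIs.

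The members and the gene lists were chosen with earlier results of these data known. Named genes were the 12 steepest called genes in each direction with a CPM of at least 20 in the higher group and no overlap, per list up to 10 members with the largest absolute difference and at least 5 CPM plus the first 4 listed, and the 5 steepest interactions in each direction. Hey1, Il23r, Myc and Nrarp fall outside this rule and were chosen after their values were seen. Alternatives were DESeq2 1.42.0, another scaling, filter and set of libraries or genes, the replicate block, fits without marker-bearing cells and without each library. The fit without cells of 13 defining markers, and the B-lineage cells used as a background for shares, were chosen after seeing the data. The replicate number pairs the compartments, since the design text derives them from the same mice. Deviations from the group means of same-numbered libraries correlated at 0.32 for WT and −0.07 for KO. On simulated counts for this comparison (14746 genes), 35.3% of 68 genes changed 1.5-fold, 75.8% of 66 changed 2-fold and 90.9% of 66 changed 4-fold were recovered, and 4.29% of the calls fell on unchanged genes. The simulation changed far fewer genes than the 7046 called in the data, so its rates may not carry over. Values of 5 single genes are not reported here.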

Additional observations from a re-analysis of the deposited data

Results flagged for a closer look

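The difference between WT γδ T and WT DN1-DN3 cells departed from that of the libraries labelled KO in 3261 genes by an interaction in the edgeR fit. P2rx7 had the largest positive value among the called genes with at least 20 CPM in a group, 5.23 on the log2 scale, with 5.94 and 7.25 CPM in DN1-DN3 and 10.7 and 9.04 CPM in γδ T libraries labelled KO. S1pr1 had 4.65. Wfs1, which encodes an endoplasmic reticulum membrane protein, had 4.33 and went from 2.04 and 1.72 to 24.4 and 18.8 CPM in WT but from 17.4 and 19.1 to 11.5 and 7.91 CPM with the label KO. Hmga2 had 4.30 and B630019A10Rik 4.27, with 6.99 and 4.76 CPM and 93.1 and 56.7 CPM in γδ T libraries labelled KO.

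The most negative value was that of Nrxn3, −6.95, a gene near 0 in WT γδ T libraries (0.238 and 0.502 CPM) and at 17.4 and 37.7 CPM in γδ T libraries labelled KO. Rnf150 had −6.84 (48.7 and 100.2 CPM), Dlgap1 −6.38 and Rnf17 −6.00 (49.3 and 87.8 CPM). Cyp2j6, a cytochrome P450, had −6.37, fell from 6.55 and 4.43 to 0.492 and 0.712 CPM in WT and went from 3.86 and 4.5 to 32.2 and 39 CPM with the label KO. WT and KO cells of a pool shared a droplet run, while γδ T and DN1-DN3 cells came from separate runs. The part of run in the interactions was not tested. The share of each γδ T subset in either genotype was not compared here. Per the study, its Trgv6+ thymic cluster held only KO cells and made up most KO γδ T cells. Its Trgv4+ thymic cluster held only WT cells. The part of this subset mix in the interactions was not tested.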

How the results depend on the processing

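The count of 7046 genes ran from 6560 without a filter on low counts to 8471 with the 4 WT thymic libraries alone, and was 6955 with DESeq2. Leaving out 1 WT thymic library gave 4660 to 5366 genes, the lowest without γδ T replicate 1, and gave 1902 to 2151 in place of the 3261 interactions. Without cells holding 2 or more UMIs of any marker list, which removes most cells since T cells use some of these genes, 4720 genes and 1920 interactions were called, the latter split 1376 to 544 in place of 1944 to 1317. With the replicate block, which pairs γδ T and DN1-DN3 libraries of the same mice, there were 6931 genes (6701 shared with the 7046), 3141 interactions and 316 list genes in place of 312. Of the named genes 7 lost and 11 gained a call with the block. The difference in the share of cells with Trdc was 44 points without thinning and 53.6 at 1000 UMIs, in place of 60.4. Of 506 genes named or listed, 331 were called and 114 of these lost the call under at least 1 alternative. The sign changed for Cd79a without cells of defining markers (1.24), and for Pmaip1 (−0.10), Tyrobp (0.26) and Ldha (0.42) without cells of the marker lists. Leaving out cells of defining markers removed 77 and 65 WT DN1-DN3 cells but 4 and 9 WT γδ T cells. Of the B-lineage cells of the DN1-DN3 runs, WT and KO together, 29 of 30 and 62 of 69 held a Cd79a UMI. The sign change of Cd79a thus cannot be told apart from this selection of cells. The cause of the other sign changes was not tested. Only 2 libraries a group, 1 run per library and an unstated number of mice limit all of these values.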

Other observations

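Among 25 cyclin, kinase and inhibitor genes 7 were higher and 5 lower in γδ T cells (48% called, near the 47.2% of all genes), and 3 were lower without DN1-DN3 replicate 1 or γδ T replicate 1. Ccnd2 and Ccnd3, the D cyclins of lymphocytes, rose by 0.84 and 0.69 on the log2 scale, from 217 and 204 to 378 and 362 CPM and from 418 and 355 to 649.6 and 580.5 CPM. Eno3, an enolase of muscle, rose from 2.46 and 2.81 to 10.2 and 9.22 CPM (log2 1.90, edgeR adjusted p = 2.78e-05).

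At 2000 UMIs per cell Ccr9 was detected in 64.8% and 61.3% of γδ T cells, 19.6% and 19.5% of DN1-DN3 cells and 4.46% and 3% of the B-lineage cells of the DN1-DN3 runs.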
